A study of Mus musculus with 12 samples.

Results

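The Hoxc cluster was followed in embryonic mouse gonads with and without Cbx2. Its members were the 7 genes Hoxc4, Hoxc5, Hoxc6, Hoxc8, Hoxc9, Hoxc10 and Hoxc13, taken as every probe set that the platform annotation assigns to 1 of these genes alone. This gave 11 of the 45101 probe sets on the array, 3 each for Hoxc5 and Hoxc6 and 1 for each of the other 5 genes. RefSeq lists 9 Hoxc genes, and the remaining Hoxc11 and Hoxc12 were not analysed here. Expression was measured on Affymetrix mouse arrays in 4 groups of 3 arrays: KO XY, KO XX, WT XY and WT XX, where KO is the Cbx2 knockout and WT the wild type. All embryos were at E11.5, staged by tail somites, and came from crosses of Cbx2 heterozygotes. Gonadal cells found by GATA4 staining and by form were laser-captured from 30 µm frozen sections, and tissue of 2 or 3 embryos was pooled for each array. The labels name no cell-specific driver for the knockout, and they do not say which part of Cbx2 was deleted.

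Hox genes encode homeodomain transcription factors that give cells their position along the head-to-tail axis. They lie in 4 clusters, and within a cluster the order of the genes follows the order in which they are switched on in time and along the body, with low numbers early and anterior and high numbers late and posterior. Polycomb complexes keep Hox genes silent where they are not needed. The protein encoded by Cbx2 is a chromobox subunit of Polycomb repressive complex 1 that binds the histone mark left by Polycomb repressive complex 2, and mice that lack it have vertebrae with the identity of their posterior neighbours.

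The RefSeq promoter table for build GRCm38.p6 held 1 of the 7 members, Hoxc4. Its sequence is given because Hoxc4 was among the genes higher in knockout gonads. It covers 250 bases before to 50 bases after an annotated start on the plus strand, chr15:103034145-103034444, with the CG dinucleotides in capitals:
Hoxc4 promoter: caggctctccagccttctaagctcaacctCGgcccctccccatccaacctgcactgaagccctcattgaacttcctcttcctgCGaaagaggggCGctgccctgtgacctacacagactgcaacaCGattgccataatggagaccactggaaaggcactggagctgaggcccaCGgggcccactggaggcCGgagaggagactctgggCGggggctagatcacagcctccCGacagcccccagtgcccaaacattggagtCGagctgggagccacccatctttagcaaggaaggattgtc
It held 9 CG dinucleotides, against a median of 7 over 32841 promoters of the same length, and 45.8% of those held as many or more. Motifs were searched on both strands. There was 1 GC box (GGGCGG, in 35.7% of promoters) and 1 CCAAT box (CCAAT, in 37.4%). The TATA box TATAAA (13.6% of promoters), the homeodomain core TAATTA (5.29%) and the composite Hox and Pbx motif TGATTNAT (3.22%) were not in this window. A match of letters does not show a used site.

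The cluster also carries Mir196a-2, which lies between Hoxc10 and Hoxc9 at chr15:102973365-102973386 (plus strand, GRCm38.p6, mature form). Its product is known to act on Hox transcripts, among them Hoxc8, which rose in knockout gonads. The same mature sequence also comes from Mir196a-1 at chr11:96265187-96265208, outside this cluster. The mature sequence is given with the seed, bases 2 to 8, in capitals:
mmu-miR-196a-5p: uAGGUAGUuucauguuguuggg
Mature miRNAs were not measured on these arrays.

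Values below are log2 RMA values, in which 1 unit is a doubling. They compare arrays for 1 probe set at a time and not 1 probe set with another. Array medians lay between 5.88 and 5.94. Xist was at least 12.55 in every XX array and at most 6.09 in every XY array, and the Y-linked gene Eif2s3y was at least 9.36 in XY and at most 3.73 in XX, so each array matched its labelled sex. Cbx2 itself was not lower in the KO arrays. The brighter of its probe sets averaged 9.45 ± 0.12 in KO XY against 8.92 ± 0.12 in WT XY, and 9.34 ± 0.11 in KO XX against 8.60 ± 0.16 in WT XX (SD, n = 3). With the deleted part unknown, these probe sets do not check the genotype. The source name of every WT sample reads as KO XX, against title and genotype field. All directions between KO and WT therefore rest on the titles and genotype labels. WT XX replicate 1 stood apart from the other WT XX arrays in several Hoxc genes, and the Hoxc knockout effects that involve WT XX are also given without it. The Gapdh 3' minus 5' probe difference can grow as RNA degrades. It was 4.91 ± 0.12 in KO XY against 4.13 ± 0.38 in WT XY, and 4.05 ± 0.22 in KO XX against 4.30 ± 0.45 in WT XX. All RNA was amplified in 2 cycles, and the parts of degradation and amplification in this difference were not tested. The lowest KO XY array, at 4.78, lay above the highest WT XY array, at 4.57. In XY this difference and genotype therefore cannot be told apart.

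Knockout gonads of both sexes had higher values of most Hoxc genes than wild-type gonads. Fewer XY calls were made with the Gapdh 3' minus 5' difference in the fit, and fewer XX calls with single arrays left out. Averaged over both sexes, 7 of the 11 probe sets rose, from 6 of the 7 genes, and none fell (limma, Benjamini-Hochberg adjusted p under 0.05 over 45037 probe sets). Over all probe sets on the array, 9.84% passed in the same direction. The median log2 fold change was 0.68 over the 11 probe sets and -0.01 over all probe sets. In 7 Hoxc probe sets every KO array lay above every WT array, which held for 4.47% of all probe sets. The increase over both sexes was 2.15-fold in Hoxc4, 2.18-fold and 1.93-fold on the 2 Hoxc5 probe sets that passed, 2.33-fold in Hoxc8, 1.61-fold in Hoxc9, 2.58-fold in Hoxc10 and 1.26-fold on 1 Hoxc6 probe set. Hoxc13 had a log2 fold change of 0.08 ± 0.08 (adjusted p = 0.585). With the Gapdh 3' minus 5' difference as a covariate the count over both sexes was 6, with 6 in XX and 2 in XY. Without WT XX replicate 1 the count over both sexes was again 7. The log2 fold change over both sexes was then 0.91 ± 0.12 in Hoxc4 and 1.11 ± 0.20 in Hoxc10, against 1.11 ± 0.19 and 1.37 ± 0.27 with it. Without that array Hoxc8 had 1.05 ± 0.08, Hoxc9 0.72 ± 0.09, Hoxc13 0.04 ± 0.08 and the 2 Hoxc5 probe sets that passed 1.19 ± 0.13 and 0.86 ± 0.11. In captured tissue, a change in the share of cells that express a gene and a change in RNA per cell cannot be told apart.

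**Figure D1:**
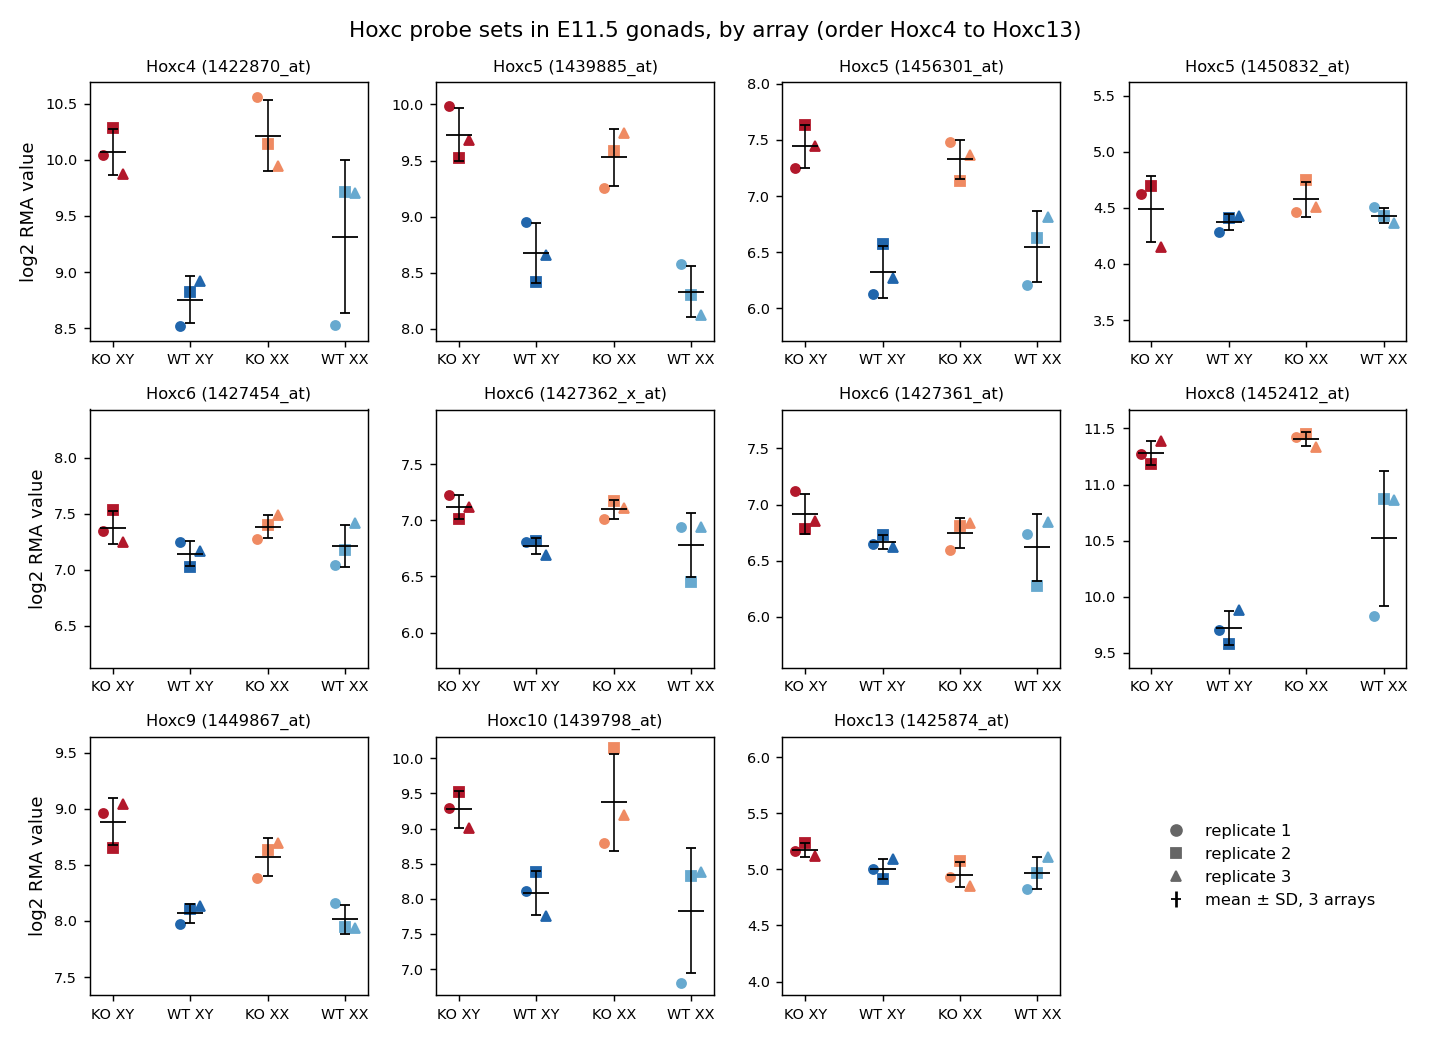
Log2 RMA value of each of the 11 Hoxc probe sets (vertical axes, each spanning its own range) in KO XY, WT XY, KO XX and WT XX arrays. Points are single arrays and bars are the mean ± SD of 3 arrays. All KO arrays lie above all WT arrays for Hoxc4, Hoxc8, Hoxc9, Hoxc10, the 2 brighter Hoxc5 probe sets and 1427362_x_at of Hoxc6, and WT XX replicate 1 lies below the other WT XX arrays in Hoxc4, Hoxc8 and Hoxc10.

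The members are described from the anterior end of the cluster to the posterior end. Hoxc4, which with its paralogues patterns the neck and upper thorax, had 10.04, 10.28 and 9.88 in KO XY arrays, against 8.52, 8.82 and 8.92 in WT XY. It had 10.56, 10.14 and 9.94 in KO XX arrays, against 8.53, 9.71 and 9.70 in WT XX. Knockout arrays were above wild-type arrays in both sexes, but WT XX replicates 2 and 3 came close to the lowest KO arrays while WT XX replicate 1 was as low as WT XY. The log2 fold change was 1.31 ± 0.26 in XY (SE, limma adjusted p = 0.0059) and 0.90 ± 0.26 in XX (adjusted p = 0.0478). Without WT XX replicate 1 the XX value was 0.51 ± 0.18 and did not pass (adjusted p = 0.114). The XX call held in 7 of 22 alternatives, with adjusted p from 0.00528 to 0.169. The XY call held in 21 of 22 and was lost with the Gapdh covariate (0.65 ± 0.31, adjusted p = 0.477).

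Hoxc5, an anterior trunk gene next to Hoxc4, was read by 3 probe sets, of which 2 rose and 1, of low signal, did not. The brightest, 1439885_at, had 9.99, 9.52 and 9.69 in KO XY, against 8.95, 8.42 and 8.65 in WT XY. In XX it had 9.25, 9.58 and 9.75 in KO, against 8.57, 8.30 and 8.12 in WT. Here WT XX replicate 1 was the highest of its group, and KO and WT did not overlap in either sex. The log2 fold change was 1.06 ± 0.18 in XY (adjusted p = 0.00152) and 1.19 ± 0.18 in XX (adjusted p = 0.000643). Both calls held in all 22 alternatives, 1 of which took the mean of the 3 Hoxc5 probe sets (0.76 in XY, 0.70 in XX). The probe set 1456301_at rose too, by 1.12 ± 0.17 in XY (adjusted p = 0.000669) and 0.78 ± 0.17 in XX (adjusted p = 0.0101), with KO arrays between 7.13 and 7.63 and WT arrays between 6.13 and 6.82. Without WT XX replicate 1 the XX values were 1.32 ± 0.19 on 1439885_at (adjusted p = 0.000628) and 0.60 ± 0.16 on 1456301_at (adjusted p = 0.0358). The XY call on 1456301_at was lost with the Gapdh covariate (0.72 ± 0.20, adjusted p = 0.109). The third, 1450832_at, stayed between 4.15 and 4.75 in all 12 arrays, with log2 fold changes of 0.12 ± 0.14 in XY (adjusted p = 0.732) and 0.14 ± 0.14 in XX (adjusted p = 0.588), or 0.18 ± 0.16 in XX without WT XX replicate 1. With all arrays its 95% interval reached at most 0.44, below the estimates of the other 2 probe sets. Whether so low a signal reads any Hoxc5 RNA cannot be told without detection calls, so it does not set a limit on the Hoxc5 increase. Which transcript each probe set matches was not analysed here.

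Hoxc6, which marks the thoracic level in vertebrate embryos, changed little on any of its 3 probe sets. Its brightest probe set, 1427454_at, had 7.35, 7.53 and 7.25 in KO XY, against 7.24, 7.02 and 7.17 in WT XY. In XX it had 7.28, 7.40 and 7.49 in KO, against 7.05, 7.18 and 7.41 in WT. The XY groups were just apart and the XX groups overlapped. Log2 fold changes over the 3 probe sets ran from 0.23 to 0.35 in XY and from 0.13 to 0.32 in XX, and none passed within a sex. Over both sexes 1427362_x_at passed, at 0.33 ± 0.09 (adjusted p = 0.0255), a call that held in 14 of 19 alternatives. With WT XX replicate 1 left out it had 0.37 ± 0.10 (adjusted p = 0.0159), and the 3 XX values ran from 0.09 to 0.40, none of which passed. The other 2 had 0.20 ± 0.09 (adjusted p = 0.143) and 0.19 ± 0.10 (adjusted p = 0.257). The upper 95% bounds of the 3 over both sexes were 0.39, 0.41 and 0.54, so a doubling lay outside all of them.

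Hoxc8, which in mice acts in brachial motor neurons and the thoracic skeleton, had the widest gap between KO XY and WT XY. Its values were 11.27, 11.18 and 11.39 in KO XY, against 9.71, 9.58 and 9.88 in WT XY. In XX they were 11.43, 11.45 and 11.33 in KO, against 9.83, 10.87 and 10.86 in WT. The 6 knockout arrays lay within a range from 11.18 to 11.45, whereas the wild-type arrays fell into a low set, WT XY with WT XX replicate 1, and the higher WT XX replicates 2 and 3. The log2 fold change was 1.56 ± 0.21 in XY (adjusted p = 0.000313, 2.94-fold) and 0.88 ± 0.21 in XX (adjusted p = 0.0182, 1.85-fold). Without WT XX replicate 1 the XX value was 0.54 ± 0.12 and still passed (adjusted p = 0.0147). The XX call was lost without KO XX replicate 1 (adjusted p = 0.0512), without KO XX replicate 2 (adjusted p = 0.0581) and with only the compared groups in the fit (adjusted p = 0.0851), and it held in 19 of 22 alternatives. The XY call held in 21 of 22 and was lost with the Gapdh covariate (1.13 ± 0.28, adjusted p = 0.0521).

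Hoxc9, which specifies thoracic motor neurons in mice, had 8.96, 8.65 and 9.04 in KO XY, against 7.97, 8.10 and 8.13 in WT XY. It had 8.38, 8.63 and 8.70 in KO XX, against 8.16, 7.95 and 7.93 in WT XX. All KO arrays were above all WT arrays, and WT XX replicate 1 was here the highest wild-type array. The log2 fold change was 0.82 ± 0.13 in XY (adjusted p = 0.0011) and 0.55 ± 0.13 in XX (adjusted p = 0.0158). The XX value was 0.63 ± 0.14 without WT XX replicate 1 (adjusted p = 0.0144). The XY call held in all 22 alternatives and the XX call in 17 of 22.

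Hoxc10, expressed at lumbar and hindlimb level, was the most variable member. It had 9.30, 9.51 and 9.001 in KO XY, against 8.11, 8.39 and 7.75 in WT XY. It had 8.79, 10.14 and 9.19 in KO XX, against 6.80, 8.32 and 8.38 in WT XX. KO and WT did not overlap in either sex, yet single arrays spread by more than 1 log2 unit within KO XX and within WT XX. The log2 fold change of 1.19 ± 0.38 in XY missed the threshold (adjusted p = 0.0739), while 1.54 ± 0.38 in XX passed (adjusted p = 0.0208). Without WT XX replicate 1 both calls turned: 1.19 ± 0.27 in XY passed (adjusted p = 0.00969) and 1.03 ± 0.30 in XX did not (adjusted p = 0.0540). With the Gapdh 3' minus 5' difference as a covariate the XY value was 0.36 ± 0.48 (adjusted p = 0.917), and the XY call was made in 5 of 22 alternatives. Averaged over both sexes, Hoxc10 rose by 1.37 ± 0.27 (adjusted p = 0.00273) and passed in all 21 alternatives.

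Hoxc13, the most posterior gene of the cluster and known for its part in hair and nail formation, stayed between 4.83 and 5.24 in all 12 arrays. Its log2 fold change was 0.17 ± 0.11 in XY (adjusted p = 0.432) and -0.02 ± 0.11 in XX (adjusted p = 0.948), or -0.09 ± 0.12 in XX without WT XX replicate 1. The 95% intervals ran from -0.07 to 0.41 in XY and from -0.26 to 0.22 in XX. Whether this low signal reads any Hoxc13 RNA cannot be told from values without detection calls.

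By sex, 5 probe sets from 4 genes rose in KO XY gonads against WT XY: Hoxc4, Hoxc8, Hoxc9 and 2 probe sets of Hoxc5. On the array as a whole, 4.24% rose in this comparison. Every KO XY array lay above every WT XY array in 10 of 11 Hoxc probe sets, against 15.6% of all probe sets. With the Gapdh 3' minus 5' difference as a covariate, 2 of the 11 passed in XY, Hoxc5 on 1439885_at at 1.48 ± 0.21 (adjusted p = 0.00179) and Hoxc9 at 0.91 ± 0.19 (adjusted p = 0.0242). The other 3 calls were lost: Hoxc8 had 1.13 ± 0.28 (adjusted p = 0.0521), Hoxc5 on 1456301_at had 0.72 ± 0.20 (adjusted p = 0.109) and Hoxc4 had 0.65 ± 0.31 (adjusted p = 0.477). Hoxc10, which had not passed, had 0.36 ± 0.48 (adjusted p = 0.917).

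In XX, 6 probe sets from 5 genes rose in KO against WT, the same 4 genes with Hoxc10. The share over all probe sets was 5.77%. Every KO XX array was above every WT XX array in 7 of 11 Hoxc probe sets, against 12.1% of all probe sets. The count was 4 without WT XX replicate 1 or KO XX replicate 1 or 3, and 2, both of Hoxc5, without KO XX replicate 2. It was 2, both of Hoxc5, with only the compared groups in the fit, and 1 at an adjusted p under 0.01. With the Gapdh covariate it was 6.

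**Figure D2:**
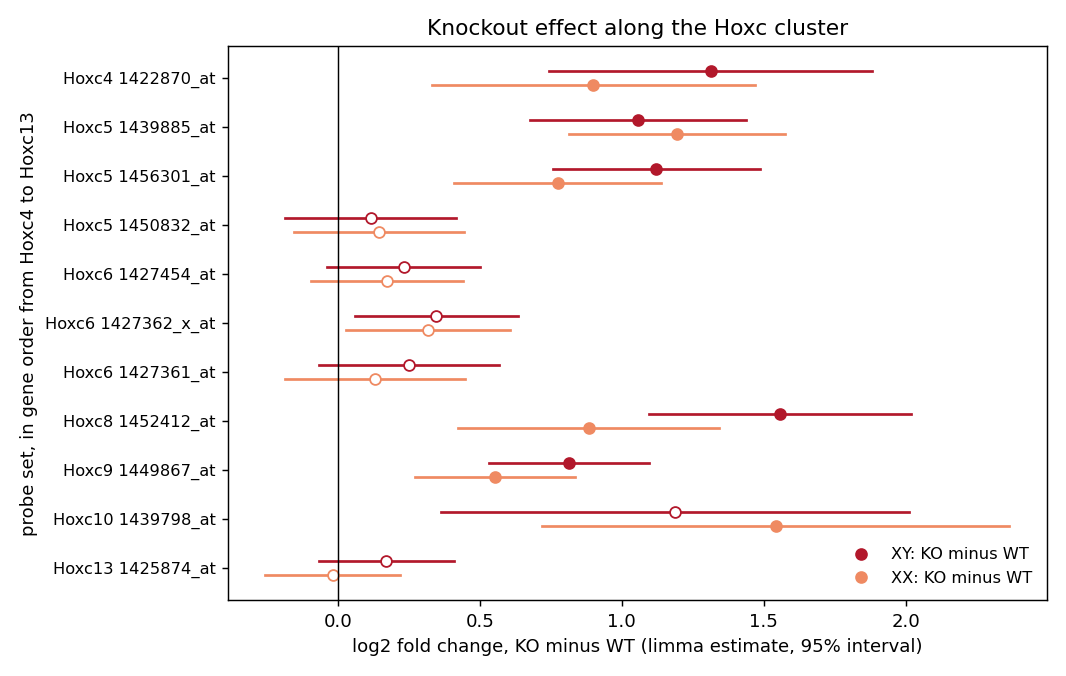
Log2 fold change of each Hoxc probe set, KO minus WT, in XY (dark) and XX (light) gonads, with 95% intervals from limma. Probe sets run down the page from Hoxc4 to Hoxc13, and filled points passed at an adjusted p under 0.05. Hoxc6, Hoxc13 and 1 Hoxc5 probe set have values from -0.02 to 0.35, and the other probe sets from 0.55 to 1.56.

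The knockout effect was next compared between the sexes. The difference, the XY effect minus the XX effect, ran from -0.35 in Hoxc10 to 0.67 in Hoxc8, and none of the 11 probe sets passed the interaction test (limma, lowest adjusted p = 0.771). One had an unadjusted p under 0.05, and 0.00666% of all probe sets passed. For Hoxc8 the 95% interval of the difference was 0.02 to 1.32, so a wide span of unequal effects was not resolved with 3 arrays a group. Without WT XX replicate 1 the Hoxc8 difference was 1.02 ± 0.16 (adjusted p = 0.0635).

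Between XY and XX gonads of the same genotype no Hoxc probe set passed. In KO the XY minus XX log2 differences ran from -0.15 to 0.32, with 0.0377% of all probe sets called and 1 Hoxc probe set at an unadjusted p under 0.05. The largest was Hoxc9, at 0.32 ± 0.13 (adjusted p = 0.432). In WT they ran from -0.80 for Hoxc8 (± 0.21, adjusted p = 0.522) to 0.34 for Hoxc5 on 1439885_at, with 0.0555% of all probe sets called and again 1 Hoxc probe set at an unadjusted p under 0.05. This comparison turned on WT XX replicate 1. It lay below the mean of WT XX replicates 2 and 3 by 1.18 in Hoxc4, by 1.04 in Hoxc8 and by 1.55 in Hoxc10, where those 2 replicates differed from each other by 0.0076, 0.011 and 0.056. In Hoxc5 on 1439885_at and in Hoxc9 it lay above them, by 0.36 and 0.22. Its Gapdh 3' minus 5' difference was 3.83, against 4.37 and 4.72 in replicates 2 and 3, and the part of RNA quality in its Hoxc values was not tested. Without it, WT XY gonads had less Hoxc8 than WT XX gonads, with an XY minus XX log2 difference of -1.14 ± 0.12 (adjusted p = 0.000483), and less Hoxc4, with -0.95 ± 0.18 (adjusted p = 0.00971). That comparison rests on 2 WT XX arrays, and 2449 of all probe sets passed in place of 25.

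The genes that flank the cluster were read next, to see whether the increase ran beyond it. These were the 5 nearest protein-coding genes on each side, in RefSeq order, that had a probe set of their own. On the side of Hoxc13 the genes were Calcoco1, Atp5g2, Atf7, Npff and Tarbp2, with log2 fold changes over both sexes from -0.36 to -0.06, none of which passed. On the side of Hoxc4 the nearest gene, Smug1, a uracil-DNA glycosylase of base excision repair, rose by 0.73 ± 0.09 (adjusted p = 4.38e-05). It averaged 9.27 in KO XY against 8.55 in WT XY, and 9.27 in KO XX against 8.52 in WT XX. The next gene, Cbx5, which encodes the heterochromatin protein HP1 alpha, had 0.08 ± 0.09 (adjusted p = 0.647). Beyond it the splicing factor gene Hnrnpa1 rose by 0.37 ± 0.09 (adjusted p = 0.00844), while Nfe2 and Copz1 had -0.13 and 0.02. By sex, Hnrnpa1 passed in XY (0.43 ± 0.12, adjusted p = 0.0426) and not in XX (0.31 ± 0.12, adjusted p = 0.146). In all 2 of 10 flanking genes rose and none fell, with a median of -0.06. Of all genes on their brightest probe set, 12.5% rose and 9.44% fell. In an alternative added after the data were seen, without WT XX replicate 1, again 2 rose and none fell, with 0.68 ± 0.09 in Smug1 and 0.31 ± 0.08 in Hnrnpa1.

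**Figure D3:**
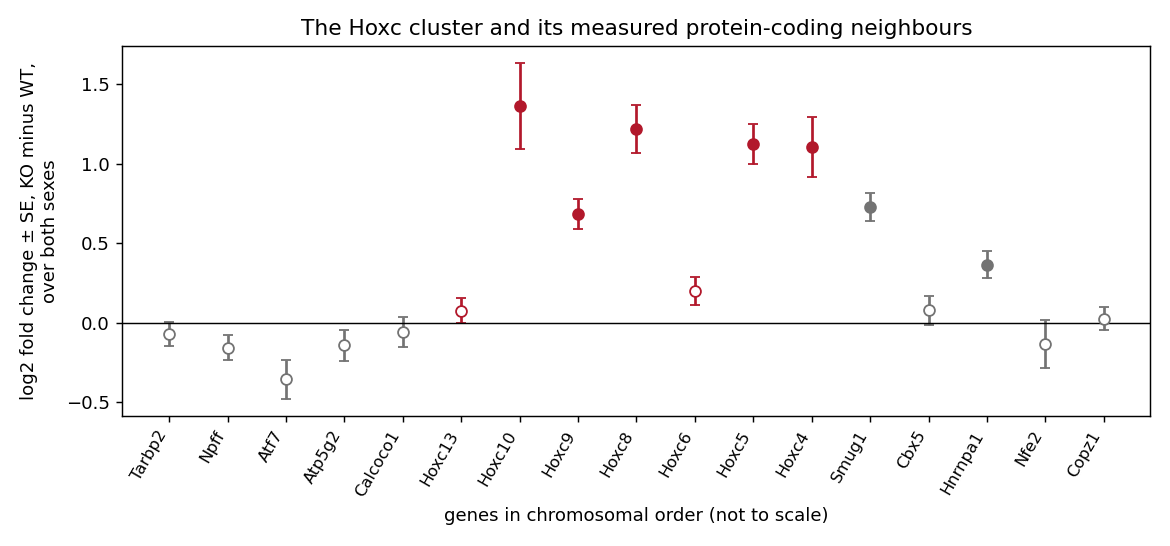
Log2 fold change over both sexes, KO minus WT, ± SE, for the brightest probe set of each Hoxc gene (red) and of 5 protein-coding genes on either side (grey), in chromosomal order and not to scale. Filled points passed at an adjusted p under 0.05. Values on the side of Hoxc13 lie between -0.36 and -0.06, and Smug1, next to Hoxc4, has 0.73.

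The other Hox clusters were read on the brightest probe set of each gene. Over both sexes, 8 of 26 Hoxa, Hoxb and Hoxd genes rose and 1 fell, beside 12.5% and 9.44% of all genes. Their median was 0.13, against -0.01 over all genes. By cluster, 4 of 9 Hoxa genes rose and Hoxa13 fell (-0.33 ± 0.10, adjusted p = 0.0369), a call lost without WT XX replicate 1. In Hoxb 2 of 9 rose and in Hoxd 2 of 8. Hoxb3 (0.80 ± 0.10, adjusted p = 4.48e-05), Hoxa5 (1.11 ± 0.15), Hoxa2 (1.04 ± 0.15) and Hoxa9 (1.51 ± 0.22) had the smallest p-values.

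Paralogues, genes with the same number in different clusters, have closely related proteins. In group 5, Hoxc5 and Hoxa5 rose while Hoxb5 had 0.24 ± 0.11 (adjusted p = 0.165). In group 9, Hoxc9 and Hoxa9 rose, while Hoxd9 had 0.35 ± 0.13 (adjusted p = 0.0891) and Hoxb9 -0.08 ± 0.13 (adjusted p = 0.737). In group 10, Hoxa10 rose by 1.47 ± 0.23 (adjusted p = 0.000499) beside Hoxc10, and Hoxd10 had -0.38 ± 0.20 (adjusted p = 0.218). In groups 4 and 8 the measured paralogues of Hoxc4 and Hoxc8 did not pass: Hoxa4 had 0.09 ± 0.07, Hoxb4 0.15 ± 0.08 and Hoxd8 -0.08 ± 0.08. Hoxa4 averaged 3.63 in WT XX and 3.76 in KO XY, its lowest and highest group means. Whether so low a signal reads any Hoxa4 RNA cannot be told without detection calls. Hoxb6, the measured paralogue of Hoxc6, had 0.08 ± 0.09. Differences between paralogues were not tested.

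**Figure D4:**
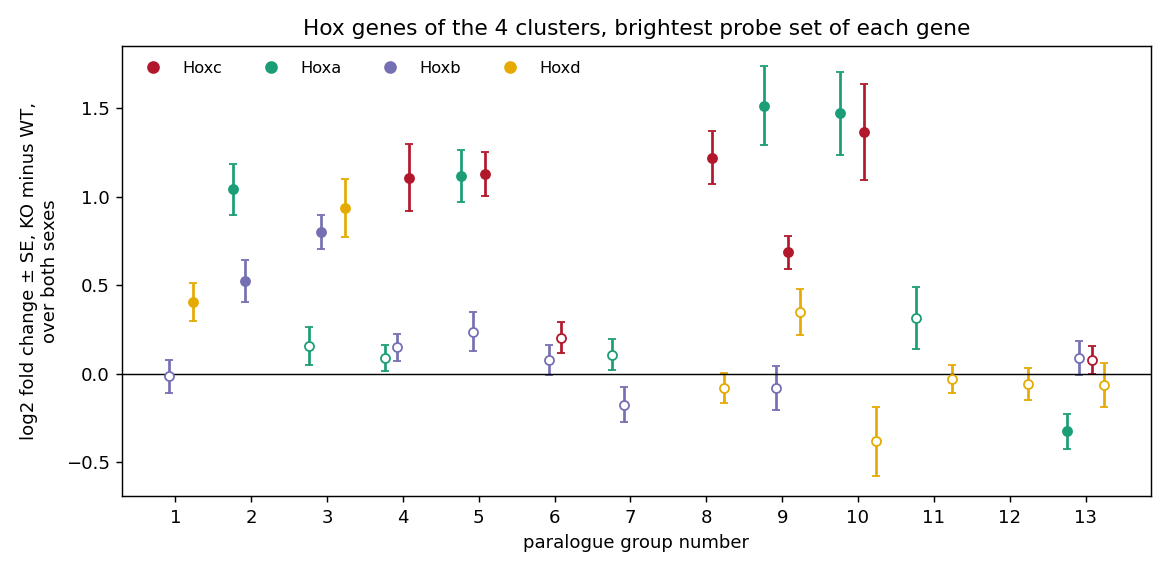
Log2 fold change over both sexes, KO minus WT, ± SE, of the brightest probe set of each measured Hox gene, by paralogue group number (horizontal) and cluster (colour). Filled points passed at an adjusted p under 0.05. In the Hoxc cluster the numbers 4, 5, 8, 9 and 10 passed on this probe set, with values from 0.68 to 1.37, and 6 and 13 did not.

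Hox proteins bind DNA together with cofactors of the Pbx, Meis and Pknox families. Of 8 measured cofactor genes 3 rose over both sexes and 1 fell, beside 12.5% and 9.44% of all genes. The list median was 0.07. Pbx3 rose by 1.35 ± 0.12 (adjusted p = 2.01e-06), with means of 12.21 in KO XY against 10.95 in WT XY and 12.07 in KO XX against 10.62 in WT XX. Meis1 rose by 1.004 ± 0.09 and Meis2 by 1.25 ± 0.12, and Pknox2 fell by 0.49 ± 0.11 (adjusted p = 0.00794). The counts were also 3 and 1 without WT XX replicate 1 and with the Gapdh covariate, both added after the data were seen. Among 11 regulators of axial patterning 3 rose over both sexes and none fell, with a list median of 0.004. In XX alone Cdx2 fell, by -0.83 ± 0.20 (limma adjusted p = 0.0159), beside 0.39 ± 0.20 in XY (adjusted p = 0.286). Its difference between the sexes did not pass (adjusted p = 0.676). Rarb, a retinoic acid receptor that is itself a retinoic acid target, rose by 1.22 ± 0.12. Jarid2, a Polycomb repressive complex 2 partner, rose by 0.47 ± 0.07, and Aldh1a2, which makes retinoic acid, by 0.76 ± 0.12. Gdf11, which drives the trunk-to-tail transition, had -0.14 ± 0.09 (adjusted p = 0.32).

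For each Hoxc gene that passed over both sexes on its brightest probe set, the 3 most similar genes were taken by Pearson's r over the 12 arrays. The 12 arrays fall into KO and WT sets, so genes that rose in KO correlate with each other, and these values are a description. How much of r came from genotype or from single arrays such as WT XX replicate 1 was not tested. Hoxc4 was most like Mplkip (r = 0.993), Ddx6 (0.981) and Arid1b (0.981). Hoxc5 was most like Ldb2 (0.981), Calml4 (0.976) and Pkdcc (0.973). Hoxc8 was most like the imprinted long noncoding RNA gene Meg3 (0.981), Pias1 (0.979) and the adhesion gene Ncam1 (0.978). Hoxc9 was most like 9330159F19Rik (0.981), Ttc28 (0.974) and Cdh26 (0.972), and Hoxc10 was most like Fundc2 (0.956), Etl4 (0.948) and Slc25a36 (0.948). No Hox gene was among these 15.

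Markers of the captured tissue and of neighbouring tissues were read over both sexes in the same way, beside 12.5% of all genes that rose and 9.44% that fell. Of 5 gonadal ridge genes Gata4, Nr5a1 and Lhx9 fell over both sexes, and the list's mean log2 value lay between 9.67 and 9.85 in KO XY arrays against 10.82 and 10.86 in WT XY, and between 9.59 and 10.04 in KO XX against 10.65 and 10.87 in WT XX. Gata4 is no independent readout here, because its protein was used to find the cells. Of 9 coelomic epithelium markers 5 rose, among them Krt19 and Upk1b, and Krt8 fell, with list means between 8.29 and 8.4 in KO XY against 7.86 and 7.95 in WT XY, and between 8.26 and 8.53 in KO XX against 7.58 and 7.81 in WT XX. Of 15 markers of limb, body wall and paraxial mesenchyme 3 rose, Twist1, Twist2 and Prrx1, and 2 fell, with list means between 6.16 and 6.27 in KO XY against 6.02 and 6.22 in WT XY, and between 6.03 and 6.16 in KO XX against 6.03 and 6.04 in WT XX. Those ranges overlapped between KO and WT in both sexes. The 2 mesenchyme markers that fell were Tbx5 (-0.21 ± 0.07, adjusted p = 0.0498) and Tcf15 (-0.32 ± 0.10, adjusted p = 0.0312). The muscle determination genes Myf5 and Myod1 averaged at most 2.94 and 5.41 in any group. Without detection calls these levels do not show whether either gene was expressed. Of 11 neural markers Stmn2 and Isl1 rose, with list means between 5.59 and 5.75 in KO XY against 5.32 and 5.55 in WT XY, and between 5.60 and 5.72 in KO XX against 5.43 and 5.57 in WT XX. Of 6 mesonephros markers 1 rose, Gata3, and 1 fell, Calb1, with list means between 5.15 and 5.33 in KO XY against 5.73 and 5.86 in WT XY, and between 5.06 and 5.57 in KO XX against 5.44 and 5.68 in WT XX, where the ranges overlapped. Calb1 averaged 6.35 in KO XY against 9.80 in WT XY, a log2 fold change of -3.45, while the other 5 mesonephros genes had XY values from -0.42 to 0.58, so the lower list mean in KO XY came from Calb1. The part of these tissues in the Hoxc values was not tested.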

How the data were processed

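RNA of 12 pools of laser-captured gonadal cells (15 ng each) was amplified in 2 cycles, biotin-labelled and hybridised, per the labels' protocols. The log2 values deposited by the authors were used as given. They were made with RMA, and the tools named are Affymetrix Expression Console and affy, per the submitters' processing notes, with no versions. RMA corrects background, quantile-normalizes arrays and summarises probes. Depth does not apply to arrays, and the 3 arrays a group limit the precision. Control probe sets (64) were left out. Genes came from the platform annotation, matched to RefSeq by gene identifier.

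The test was limma 3.58.1 (R 4.3.3) on 4 group means with 8 residual degrees of freedom, two-sided tests and Benjamini-Hochberg adjustment over 45037 probe sets within a contrast. A gene of another list was read by its brightest probe set. Log2 fold changes carry standard errors, group means standard deviations. Replicates are pools, so p-values measure the spread between pools. The fit was tested on simulated data. Alternatives covered normalization, filter, probe set choice, variance prior, array weights, replicate block, groups in the fit, the Gapdh covariate, a stricter threshold and each array left out. Named genes were the members, the checks, up to 4 genes per Hox-related list by smallest p, paralogues, 5 flanking genes a side and the 3 genes most like each member. Cdx2 and the marker genes named beside them were chosen after their values were seen. The members and lists were chosen with earlier results of these data known.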

Additional observations from a re-analysis of the deposited data

How the results depend on the processing

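Of 11 Hoxc probe sets, the KO effect passed in 5 for XY, in 6 for XX and in 7 over both sexes, and none passed for sex or the interaction. With the Gapdh covariate, which in XY cannot be told apart from genotype, the XY count was 2. With only the compared groups in the fit the XX count was 2, and at an adjusted p under 0.01 it was 1. With array weights 1 probe set, Hoxc8, passed for XY against XX in WT. Leaving out single arrays gave 5 to 6 for XY, 2 to 5 for XX, 6 to 7 over both sexes and 0 to 2 for sex in WT, with 0 to 0 for sex in KO and for the interaction. The causes were not tested. The replicate block gave 6 for XY, 5 for XX, 7 over both sexes and 0 elsewhere. Deviations of same-numbered arrays correlated between -0.178 and 0.224, over 0.1 in 4 of 18 pairs. Differently numbered arrays were not compared, so whether the replicate numbers pair the arrays was not tested.

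Among 685 values of single probe sets under the alternatives, 638 kept direction and call, 34 lost and 7 gained the call. In 1 alternative the mean of a gene's probe sets stood for its brightest probe set. The remaining 6 changed sign without passing in either fit, all in XX. Hoxc13 had 0.0456 with repeated quantile normalization, 0.0052 with median centring, 0.0089 with the Gapdh covariate, 0.034 without KO XX replicate 3 and 0.055 without WT XX replicate 3, and Hoxc6 on 1427361_at had -0.041 without WT XX replicate 2. Over all single arrays left out, Hoxc13 ran from -0.088 to 0.055 and Hoxc6 on 1427361_at from -0.041 to 0.244. Over all probe sets, 4003 passed in XY and 4213 in XX. The XY number was 1040 with the Gapdh covariate, 6937 with array weights, 6139 with only the compared groups, and 2541 and 2645 without WT XY replicates 1 and 3. The XX number was 2514 with only the compared groups. Fits on 18193 genes gave 2257 to 2421 in XY, 2340 to 2493 in XX and 3985 to 4326 over both sexes, against 7910, since fewer features were tested. Added after the data were seen, the covariate took the Hoxa, Hoxb and Hoxd genes higher in KO XY to 0, against 6 without it.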
